A study of Mus musculus with 24 samples.

Results

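Cdh5, Pecam1, Esam, Kdr, Flt1, Tek, Emcn, Egfl7 and Heyl, 9 genes that are used as markers of vascular endothelial cells, were followed across 24 RNA-seq libraries of mouse bone marrow-derived macrophages. They were taken by symbol from the count files, where each of the 9 has a row among 24421 gene symbols, and 9 of 9 passed the filter on low counts. The cells were from C57BL/6J mice aged 12 weeks, and were either wild-type (WT) or OGT KO. OGT, O-GlcNAc transferase, adds a single sugar to serines and threonines of proteins inside the cell. Cultures of each genotype stayed unstimulated (M0) or received LPS (100 ng/ml) or IL-4 (10 ng/ml), both for 12 hours, with 4 libraries in each of the 6 groups. Libraries are named by the number in their label, 1 to 4 in WT and 5 to 8 in KO, and the same numbers recur in the 3 states. The sources used here do not say how the KO was made or whether libraries of a group came from separate animals, so the p-values measure only the spread between these libraries, which may be technical. These 9 genes were chosen with the KO against WT differences and the spread among the KO libraries already known. Those values are therefore a description: where the number of genes past a threshold is printed for them, it supports nothing.

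Endothelial cells line blood and lymph vessels and are held together by junctions built on VE-cadherin, the product of Cdh5. Their growth and quiescence are set largely by VEGF acting on the receptors encoded by Kdr and Flt1, by angiopoietins acting on the receptor encoded by Tek, and by Notch signalling, whose transcriptional effectors include Heyl. Macrophages are a separate, myeloid lineage, but they can share single members of this set: Pecam1 is found on several leukocytes, and Flt1 is known on monocytes and macrophages, where it binds VEGF-A and placental growth factor. In RNA from a whole culture, fewer cells of a type and less RNA per cell cannot be told apart.

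Promoter sequence was looked up because several members moved together between libraries and others responded to a stimulus. The RefSeq promoter table (GRCm38.p6) matched 5 of the 9 genes, Egfl7, Kdr, Tek, Flt1 and Emcn, and it has no entry for Cdh5, Pecam1, Esam and Heyl. The 250 bases before the start site are shown for Kdr, which rose with LPS, for Flt1, which rose with IL-4, and for Emcn and Egfl7, 2 markers that differed between KO libraries with different numbers; for Egfl7 the first of 3 start sites in the table is used. The windows are chr5:75978456-75978705 on the minus strand for Kdr, chr5:147726012-147726261 on the minus strand for Flt1, chr3:137340828-137341077 on the plus strand for Emcn and chr2:26580833-26581082 on the plus strand for Egfl7, each printed 5′ to 3′ in the direction of transcription. The start sites are those of the promoter table, and for Kdr, Flt1 and Emcn they differ from the RefSeq gene spans given below. On the minus strand those spans begin at 75979072 for Kdr and 147726438 for Flt1, so both windows lie inside the gene as spanned there. The Emcn window runs into its span, which begins at 137341062. Capitals mark matches, on either strand, to an ETS motif (AGGAAG), to a STAT motif (TTC and GAA with 4 bases between) and to an RBPJ motif (TGGGAA). RBPJ is the DNA-binding partner of Notch, and ETS factors are abundant in both endothelial and myeloid cells.
Kdr: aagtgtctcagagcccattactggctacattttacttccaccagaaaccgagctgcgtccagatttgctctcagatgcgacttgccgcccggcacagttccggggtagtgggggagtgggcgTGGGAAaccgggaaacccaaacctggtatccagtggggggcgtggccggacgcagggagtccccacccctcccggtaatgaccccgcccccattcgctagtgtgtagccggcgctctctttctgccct
Flt1: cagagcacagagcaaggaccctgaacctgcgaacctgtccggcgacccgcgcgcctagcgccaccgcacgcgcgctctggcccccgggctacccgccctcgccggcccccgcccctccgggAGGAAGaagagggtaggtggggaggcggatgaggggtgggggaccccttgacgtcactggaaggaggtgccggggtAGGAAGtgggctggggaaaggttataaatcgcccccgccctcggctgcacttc
Emcn: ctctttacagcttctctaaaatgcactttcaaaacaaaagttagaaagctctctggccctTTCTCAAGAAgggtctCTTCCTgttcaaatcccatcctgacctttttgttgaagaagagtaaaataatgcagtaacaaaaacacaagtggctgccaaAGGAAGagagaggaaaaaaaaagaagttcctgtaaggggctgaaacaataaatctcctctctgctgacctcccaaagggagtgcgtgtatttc
Egfl7: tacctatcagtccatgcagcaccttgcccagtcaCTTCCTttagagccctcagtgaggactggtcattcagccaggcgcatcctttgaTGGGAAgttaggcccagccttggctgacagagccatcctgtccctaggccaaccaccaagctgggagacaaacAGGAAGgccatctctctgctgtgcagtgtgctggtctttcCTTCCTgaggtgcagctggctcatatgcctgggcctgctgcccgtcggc
The Kdr window held 1 RBPJ match and no ETS or STAT match. The Flt1 window held 2 ETS matches, and the Emcn window held 2 ETS matches and 1 STAT match, which do not overlap. The Egfl7 window held 3 ETS matches and 1 RBPJ match, while its second start site had 1 ETS match and the last had none, as had the Tek window. Of 32851 windows of this length in the table, 29.5% held the ETS letters, 5.85% the STAT letters and 21.6% the RBPJ letters. A match describes these letters and is not evidence of binding.

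The libraries were unequal in depth. Gene counts summed to between 63429271 and 94942464 in 21 libraries and to between 172771 and 209368 in 3 LPS libraries (WT 1, WT 2 and KO 7). Levels are given as CPM, counts scaled to a library of 1000000. The limit that a count of 0 allows (3 counts, for counting error only) was 0.0303 to 0.055 CPM with deep sequencing and 15.5 to 17.9 CPM in the 3 shallow libraries. In the shallow libraries the highest count of any of the 9 genes was 16, for Kdr in KO 7, so levels are described over the 21 deep libraries, while the tests used all 24. Ogt, the targeted gene, stood at 49.6 ± 2.64 CPM in WT M0 and 35.4 ± 1.13 CPM in KO M0 (SD, n = 4). It was lower in every deep KO library than in every WT library of its state, at 0.587 to 0.743 of the WT mean. Summed over a list of 12 macrophage markers, the deep libraries held 7667 to 17050 CPM and no marker was at 0 in any group. The 9 endothelial genes summed to 16.8 to 121 CPM.

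In WT M0 cultures all 9 genes were low. Per kilobase of exon, the order of mean levels was Egfl7 (1.06 ± 0.17 CPM per kb, SD, n = 4), Cdh5 (0.979 ± 0.116), Pecam1 (0.613 ± 0.102), Emcn (0.547 ± 0.143), Esam (0.352 ± 0.07), Kdr (0.323 ± 0.018), Heyl (0.137 ± 0.038), Tek (0.0883 ± 0.019) and Flt1 (0.0303 ± 0.0072). The neighbours Egfl7 and Cdh5, Pecam1 and Emcn, and Esam and Kdr lay within 1 SD of each other. IL-4 changed this order: in WT IL-4 cultures Flt1 was first at 4.53 ± 0.373 CPM per kb and Pecam1 second at 2.34 ± 0.084. With LPS the first was Kdr, at a mean of 3.02 CPM per kb in the 2 deep WT libraries.

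**Figure D1:**
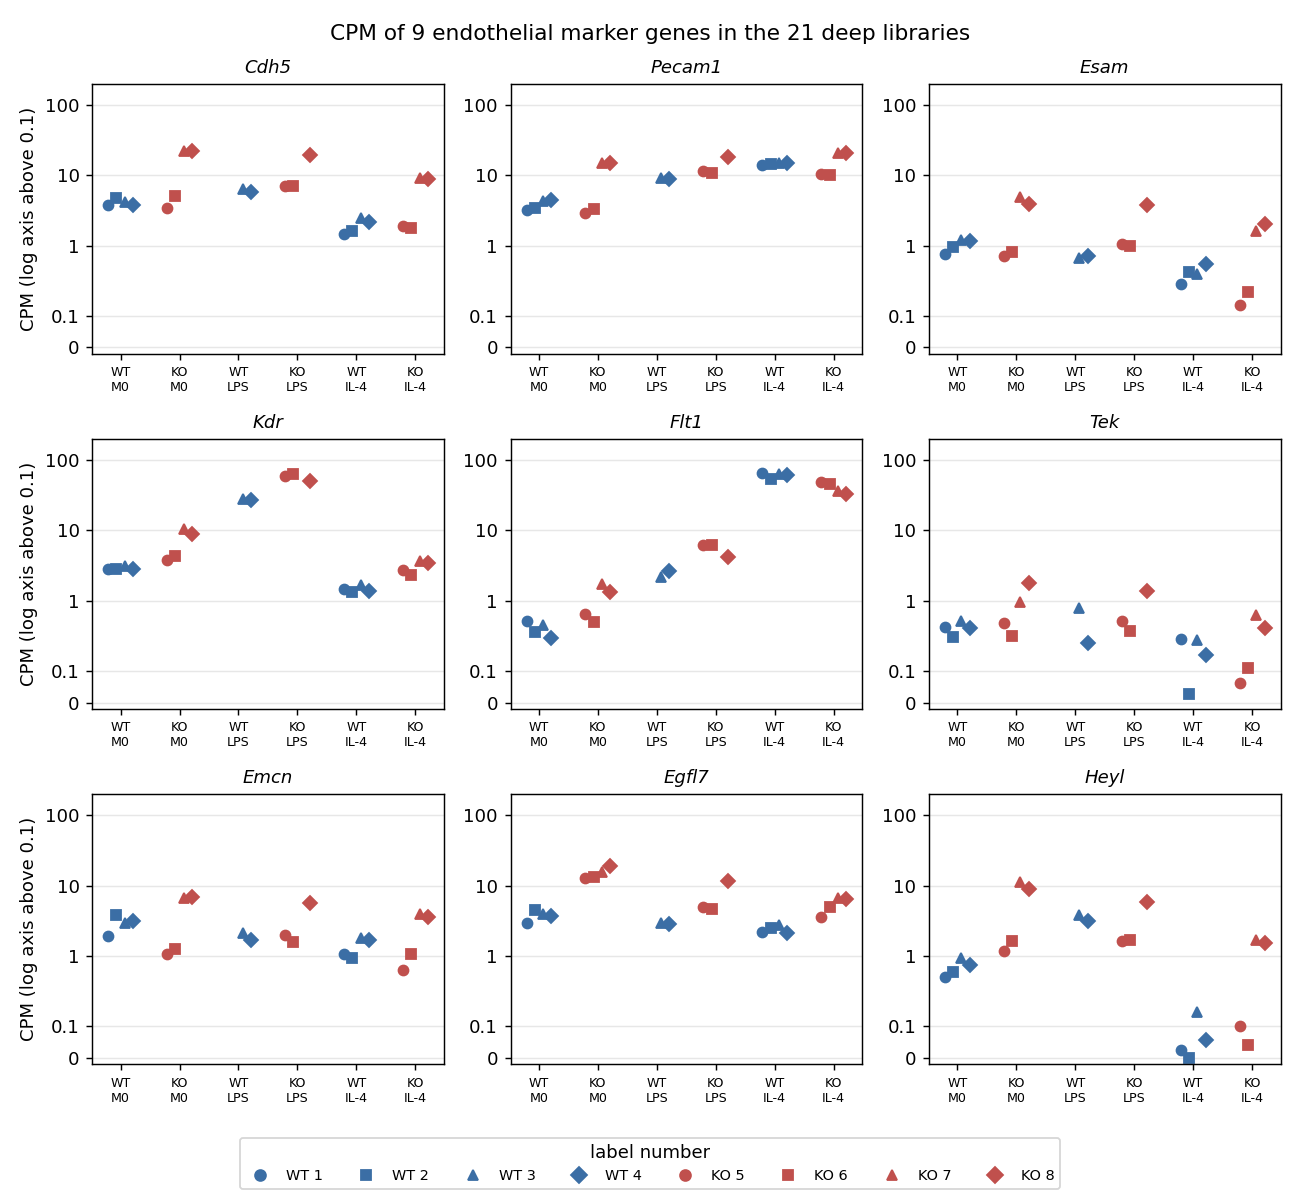
CPM of the 9 genes (vertical axis, logarithmic above 0.1 CPM) in each of the 21 deep libraries, by genotype and state (horizontal axis; blue WT, red KO, symbols by label number). KO libraries 7 and 8 lie above every WT library in M0 for all 9 genes, whereas Kdr rises with LPS and Flt1 with IL-4 in both genotypes.

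Cdh5 encodes VE-cadherin, the adhesion molecule of the endothelial adherens junction. Cdh5 spans chr8:104101613-104144504 on the plus strand (RefSeq, GRCm38.p6, as for the genes that follow). In M0 it stood at 3.73, 4.76, 4.22 and 3.75 CPM in WT libraries 1 to 4 and at 3.46, 4.99, 22.3 and 21.9 CPM in KO libraries 5 to 8. KO 5 lay just below the WT range and KO 6 just above it, whereas KO 7 and 8 were 5.41 and 5.33 times the WT mean. The same division was seen with IL-4, where WT libraries held 1.45 to 2.51 CPM and KO libraries 5 to 8 held 1.92, 1.75, 9.01 and 8.74 CPM. With LPS the deep WT libraries 3 and 4 held 6.29 and 5.87 CPM, and KO 5, 6 and 8 held 7.07, 7.01 and 19.2 CPM. KO 8 was again apart, and KO 5 and 6 lay just above both WT values.

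Pecam1 encodes CD31, an adhesion molecule of endothelial junctions, platelets and leukocytes. Pecam1 spans chr11:106654213-106715281 on the minus strand. Its M0 values were 3.17, 3.38, 4.26 and 4.46 CPM in WT and 2.91, 3.33, 15.1 and 14.9 CPM in KO, so only KO 7 and 8 exceeded WT. With IL-4 it stood at 13.9, 14.5, 14.8 and 15.2 CPM in WT and at 10.5, 9.99, 20.5 and 21 CPM in KO, with KO 5 and 6 below all 4 WT libraries and KO 7 and 8 above them. With LPS it was 9.07 and 8.74 CPM in the deep WT libraries and 11.4, 10.8 and 18.4 CPM in KO 5, 6 and 8.

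Esam, a junctional adhesion molecule of endothelial cells and platelets, was 0.757, 0.941, 1.19 and 1.15 CPM in WT M0 and 0.707, 0.804, 4.98 and 3.91 CPM in KO M0. KO 7 and 8 were 4.94 and 3.87 times the WT mean, and KO 5 and 6 were 0.7 and 0.797 times. Esam spans chr9:37528089-37538319 on the plus strand. With IL-4, KO 5 and 6 (0.143 and 0.221 CPM) lay below the WT range of 0.284 to 0.542 CPM, and KO 7 and 8 (1.64 and 2.04 CPM) above it.

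Kdr encodes VEGF receptor 2, the main signalling receptor for VEGF-A. Kdr spans chr5:75932827-75979072 on the minus strand. It was the most even of the 9 genes in WT M0, at 2.81, 2.87, 3.15 and 2.83 CPM. The KO M0 libraries held 3.82, 4.31, 10.6 and 8.81 CPM, all above WT, with KO 7 and 8 highest. With LPS the deep WT libraries rose to 27.8 and 26.9 CPM and KO 5, 6 and 8 to 59.4, 62.4 and 51.2 CPM, so that here KO 8 was the lowest deep KO library. With IL-4 it was 1.49, 1.34, 1.68 and 1.37 CPM in WT and 2.77, 2.36, 3.71 and 3.43 CPM in KO, with no overlap.

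Flt1 encodes VEGF receptor 1, which binds VEGF-A and placental growth factor and also has a soluble form. Flt1 spans chr5:147561604-147726438 on the minus strand. It was scarce in M0, at 0.517, 0.36, 0.459 and 0.3 CPM in WT and 0.656, 0.495, 1.71 and 1.33 CPM in KO. With IL-4 it reached 65.3, 54, 63.9 and 61.4 CPM in WT and 48.6, 45.8, 36.1 and 32.7 CPM in KO. Every KO value lay below every WT value there, and KO 7 and 8, the highest KO libraries in M0, were the lowest. With LPS it was 2.19 and 2.67 CPM in WT and 6.14, 6.16 and 4.15 CPM in KO 5, 6 and 8.

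Tek encodes TIE2, the angiopoietin receptor, and was near the lower limit of these data. Tek spans chr4:94739086-94874976 on the plus strand. It stood at 0.421, 0.304, 0.523 and 0.415 CPM in WT M0 and at 0.485, 0.32, 0.96 and 1.77 CPM in KO M0, so KO 5 and 6 fell within the WT range. With IL-4 it was 0.284, 0.028, 0.275 and 0.171 CPM in WT and 0.0613, 0.111, 0.627 and 0.415 CPM in KO. WT 2 there lay under the 0.042 CPM that a count of 0 would allow.

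Emcn encodes endomucin, a sialomucin of venous and capillary endothelium. Emcn spans chr3:137341062-137431069 on the plus strand. Its M0 values were 1.94, 3.81, 2.99 and 3.11 CPM in WT and 1.06, 1.26, 6.77 and 6.81 CPM in KO. KO 5 and 6 lay below all WT libraries, at 0.358 and 0.425 of the WT mean, and KO 7 and 8 above them, at 2.29 and 2.3 times. The WT and KO means, 2.96 ± 0.772 and 3.98 ± 3.25 CPM (SD, n = 4), describe neither pair of KO libraries.

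Egfl7 encodes a secreted protein of the endothelial matrix. Egfl7 spans chr2:26581083-26592682 on the plus strand. In M0 it was 2.99, 4.47, 3.91 and 3.76 CPM in WT and 12.8, 13.2, 15.8 and 19.3 CPM in KO. Unlike Cdh5, it was thus high in all 4 KO libraries, at 3.4 to 5.1 times the WT mean, and the groups did not overlap. The groups also did not overlap with IL-4 (2.18, 2.48, 2.8 and 2.14 CPM in WT; 3.61, 4.94, 6.59 and 6.47 CPM in KO). With LPS the deep libraries gave 2.92 and 2.85 CPM in WT and 5.02, 4.62 and 11.5 CPM in KO 5, 6 and 8. Exons of Egfl7 overlap those of Agpat2 by 64 bases on the other strand and of Gm20532 by 264 bases on the same strand, and also hold Mir126a and Mir126b, so its counts are uncertain where the strand setting of the counting is not given.

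Heyl encodes a basic helix-loop-helix repressor activated by Notch. Heyl spans chr4:123233556-123249870 on the plus strand. In M0 it was 0.505, 0.595, 0.95 and 0.749 CPM in WT and 1.18, 1.63, 11.3 and 8.95 CPM in KO, with all KO libraries above WT and KO 7 and 8 at 16.1 and 12.8 times the WT mean. With IL-4 it nearly vanished from WT libraries, which held 2, 0, 14 and 4 counts, and from KO 5 and 6, with 10 and 3 counts. KO 7 and 8 kept 158 and 113 counts, or 1.68 and 1.51 CPM. With LPS the deep WT libraries held 3.78 and 3.1 CPM, above KO 5 and 6 (1.62 and 1.71 CPM) and below KO 8 (5.8 CPM).

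**Figure D2:**
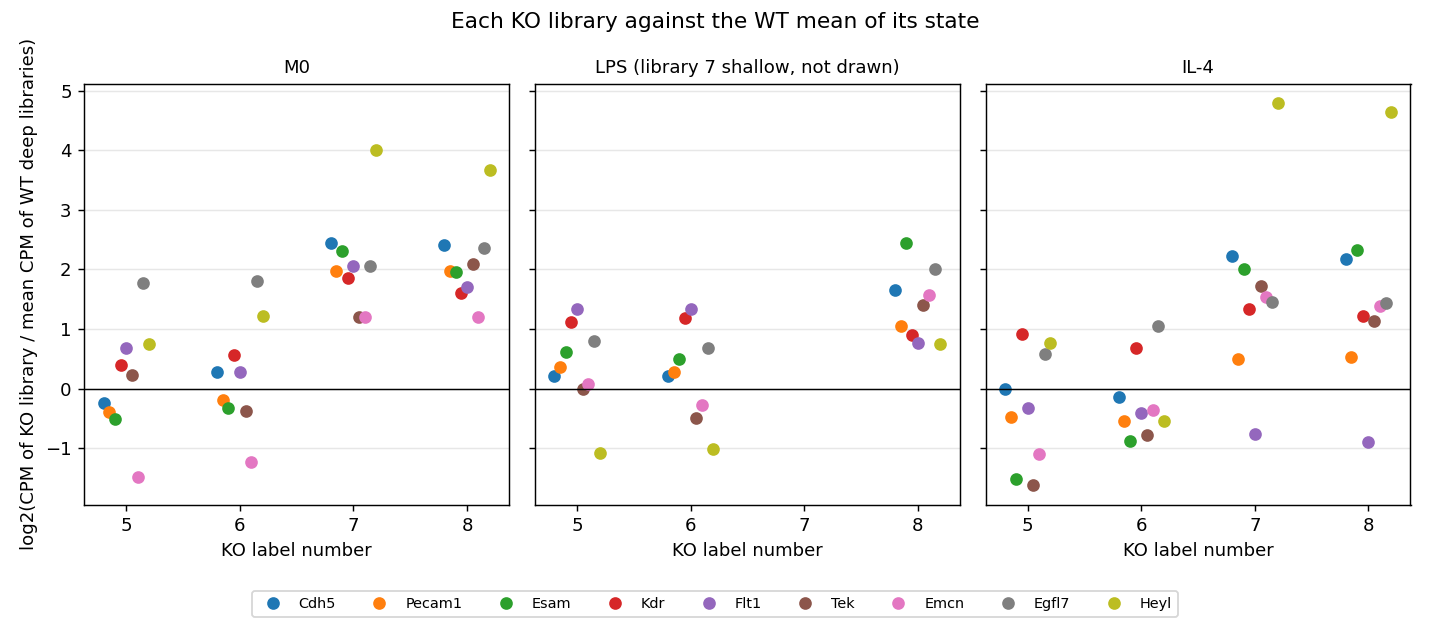
Log2 of each deep KO library's CPM over the mean CPM of the deep WT libraries of the same state (vertical axis), by KO label number (horizontal axis) for each of the 9 genes (colours). In M0, libraries 7 and 8 lie above 0 for all 9 genes. Libraries 5 and 6 both lie above 0 for Egfl7, Heyl, Kdr and Flt1 and both below 0 for Emcn, Esam and Pecam1. For Cdh5 and Tek they lie on either side of 0.

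Counted over the genes, 9 of 9 were above the WT range in KO 7 and in KO 8 in M0, with a median of 4.17 and 3.91 times the WT mean. In KO 5 and KO 6 the count above the WT range was 4 and 4 and the count below it 4 and 1, with medians of 1.17 and 1.21 times. With IL-4, KO 7 and KO 8 were each above the WT range for 8 genes and below it for Flt1. KO 5 and 6 were above it for Egfl7 and Kdr alone and below it for 4 and 3 genes. With LPS, KO 8 was above both deep WT libraries for 9 of 9 genes, and KO 5 and KO 6 for 6 each. The share of all genes outside the WT range was not computed for these libraries, so nothing is read from these counts.

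In the fit over all libraries the KO against WT log2 fold changes in M0 were highest for Heyl (3.02 ± 0.7, SE), Egfl7 (2.01 ± 0.22) and Cdh5 (1.67 ± 0.5) and lowest for Emcn (0.41 ± 0.51). The threshold of an adjusted p under 0.05 (edgeR's quasi-likelihood test) was passed by 6 of 9 genes in M0, all higher in KO, against 22.3% of all 14693 genes tested. It was passed by 3 of 9 with LPS (Egfl7, Kdr and Flt1, all higher in KO) against 30.9%, and by 5 of 9 with IL-4 (Cdh5, Egfl7, Kdr and Heyl higher, Flt1 lower) against 36.1%. Since the genes were chosen on these contrasts, nothing is read from the counts. Differences between label numbers within KO passed for 8 of 9 genes, all but Flt1, against 20.6% of all genes, and this spread also chose the genes. Within WT they passed for 0 of 9 genes, against 0.939% of all genes. There, 2 genes, Tek and Emcn, had an unadjusted p under 0.05 in edgeR, and DESeq2 called 0 of the 8 genes to which it gave an adjusted p.

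LPS raised the VEGF receptor genes in both genotypes. Kdr rose 9.08-fold in WT (log2 fold change 3.18 ± 0.25, SE; adjusted p = 1.78e-11, edgeR) and 8.61-fold in KO (3.11 ± 0.22; adjusted p = 2.46e-12). Flt1 rose 5.85-fold in WT (2.55 ± 0.34; adjusted p = 3.66e-07) and 5.42-fold in KO (2.44 ± 0.24; adjusted p = 1.63e-09). For both genes every deep LPS library was above every M0 library of its genotype. Tek, the angiopoietin receptor gene, was at 0.29 ± 0.71 in WT and -0.23 ± 0.59 in KO and did not pass.

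Among the other genes, Pecam1 rose in WT (1.22 ± 0.44; adjusted p = 0.0211) and so did Heyl (2.26 ± 0.8; adjusted p = 0.018). Both calls rest on few libraries. Without WT M0 1 or without WT LPS 3 neither passed (Pecam1 adjusted p = 0.076 and 0.0828, Heyl 0.0544 and 0.0864), and Pecam1 also did not pass without WT M0 2 (0.0716) or without WT LPS 4 (0.0671). Egfl7 fell in KO (-1.11 ± 0.23; adjusted p = 0.000154), where the 3 deep LPS libraries, at 4.62 to 11.5 CPM, were below the 4 M0 libraries, at 12.8 to 19.3 CPM. In WT Egfl7 was at -0.4 ± 0.29 and did not pass in the fit over all libraries. In edgeR on the WT M0 and LPS libraries alone it did (-0.41; adjusted p = 0.0362). Cdh5 (0.58; adjusted p = 0.000845) and Emcn (-0.64; adjusted p = 0.0144) also passed there, in opposite directions. In all, 4 of 9 genes passed in WT, all upward, against 57.7% of all genes, and 3 of 9 in KO, 2 upward and 1 downward, against 67.3%. The median log2 fold change of the 9 genes was 0.59 in WT and -0.24 in KO, and that of all genes was -0.01 and -0.07. In KO the median of the 9 genes turned to 0.23 in the fit with the replicate block described next, where that of all genes was -0.06. In fits on fewer groups or libraries the WT count of 4 reached 7, and in DESeq2 it was 2.

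Within KO the libraries of a number deviated together across states, but another number often came close, and KO 6 was no closer to its own number than to another. The fit with the label number as a replicate block is given where it changed a call. With the block, 5 of 9 genes passed for LPS in KO, against 71.6% of all genes. Pecam1 was then up by 1.08 ± 0.19 (adjusted p = 1.02e-05), and Cdh5 was up by 0.37 ± 0.15 (adjusted p = 0.0306), whereas its value without the block was -0.24 ± 0.52. Cdh5 in fact rose between M0 and LPS in KO 5 and KO 6 and fell in KO 8, from 21.9 to 19.2 CPM.

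**Figure D3:**
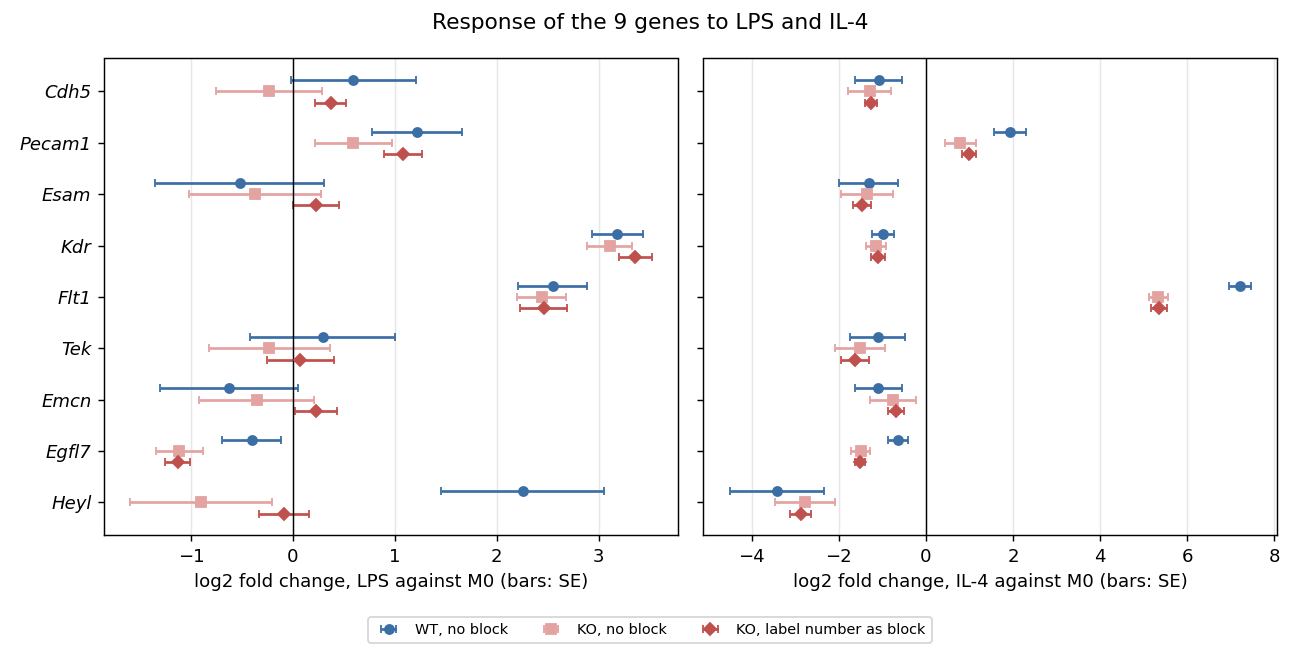
Log2 fold change of each of the 9 genes for LPS against M0 (left) and IL-4 against M0 (right), with bars of 1 standard error, in WT, in KO, and in KO with the label number as a replicate block. Kdr and Flt1 are the 2 genes farthest to the right with LPS, and with IL-4 only Flt1 and Pecam1 lie right of 0.

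IL-4 sent the VEGF receptors apart: Flt1 rose and Kdr fell. Flt1 rose 148-fold in WT (log2 fold change 7.21 ± 0.25, SE; adjusted p = 4.6e-18, edgeR) and 40.5-fold in KO (5.34 ± 0.22; adjusted p = 2.27e-16). Kdr fell by 0.98 ± 0.25 on the log2 scale in WT (adjusted p = 0.00163) and by 1.15 ± 0.22 in KO (adjusted p = 0.000115). Tek was at -1.11 ± 0.63 in WT, which did not pass in the fit over all libraries, and fell in KO by 1.52 ± 0.57 (adjusted p = 0.0298). Heyl, the Notch effector, and Egfl7 also fell in both genotypes. Heyl fell 10.7-fold in WT (-3.42 ± 1.09; adjusted p = 0.00862) and 6.82-fold in KO (-2.77 ± 0.69; adjusted p = 0.00162), from counts that in WT were nearly exhausted. Egfl7 fell by 0.65 ± 0.23 in WT (adjusted p = 0.0166) and by 1.5 ± 0.21 in KO (adjusted p = 1.99e-06). In DESeq2 the fall of Egfl7 in WT did not pass (adjusted p = 0.0778).

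Pecam1 was the other gene that IL-4 raised. It rose 3.81-fold in WT (1.93 ± 0.37; adjusted p = 7.91e-05), and all 4 IL-4 libraries were above all 4 M0 libraries. In KO it was at 0.79 ± 0.35 and did not pass without the block. Cdh5 fell in KO (-1.29 ± 0.49; adjusted p = 0.0309) and was at -1.09 ± 0.54 in WT (adjusted p = 0.0845), where Emcn (-1.09 ± 0.54) and Esam (-1.31 ± 0.68) did not pass either. In edgeR on the WT M0 and IL-4 libraries alone, Cdh5 (adjusted p = 3.88e-05), Emcn (0.000829), Esam (0.000243) and Tek (0.031) passed as lower. For each of these genes every WT IL-4 library was below every WT M0 library. On the KO M0 and IL-4 libraries alone, Cdh5 (0.158) and Tek (0.0975) did not pass. The Cdh5 call in KO was lost without KO M0 7 (adjusted p = 0.124), KO M0 8 (0.119), KO IL-4 5 (0.0888) or KO IL-4 6 (0.0877). The Tek call in KO was lost without KO M0 8 (0.176), KO IL-4 5 (0.0869) or KO IL-4 6 (0.0813). In DESeq2 neither passed (Cdh5 adjusted p = 0.0693, Tek 0.118). Conversely, Pecam1 passed in KO without KO M0 7 (adjusted p = 0.0151), KO M0 8 (0.0156) or KO IL-4 6 (0.0477), and Esam, at -1.35 ± 0.61, passed without any 1 of KO M0 5, KO M0 6, KO IL-4 7 and KO IL-4 8. In all, 5 of 9 genes passed in WT (2 up, 3 down) against 60.1% of all genes, and 6 of 9 in KO (1 up, 5 down) against 51.3%. With the replicate block 9 of 9 passed in KO (2 up, 7 down) against 59.3% of all genes. The added calls were Pecam1 (0.98 ± 0.16; adjusted p = 9.72e-06), Emcn (-0.69 ± 0.18; adjusted p = 0.00174) and Esam (-1.47 ± 0.21; adjusted p = 8.57e-07). In each of the 4 KO numbers Cdh5, Egfl7, Kdr, Tek, Emcn, Esam and Heyl were lower with IL-4 than in M0, and Flt1 and Pecam1 were higher.

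Whether the response differed between genotypes was tested as the KO response minus the WT response. This equals the KO against WT value with the stimulus minus that in M0. Such values were among those that chose the genes, so these differences are not an independent test. The responses in KO use the same M0 libraries. For IL-4, 1 of 9 genes passed, against 1.14% of all genes. Flt1 rose less in KO than in WT, by -1.87 ± 0.36 on the log2 scale (SE; adjusted p = 0.0081). Its M0 level was higher and its IL-4 level lower in KO. DESeq2 gave none of the 9 genes an adjusted p for this difference. Without KO numbers 7 and 8 the difference was -0.85 (adjusted p = 0.0935), and without numbers 5 and 6 it was -2.68 (adjusted p = 1.86e-08). For LPS, 0 of 9 genes passed, against 11.4% of all genes. Here 1 gene had an unadjusted p under 0.05 in edgeR, and DESeq2 called 0 of the 4 genes to which it gave an adjusted p. The gene with that unadjusted p was Heyl, at -3.16 ± 1.07 (adjusted p = 0.0549), and it passed in 12 of 31 alternative fits. With the replicate block, which in WT rests on nothing more than a shared number, 3 of 9 genes passed for LPS, against 20.3% of all genes: Egfl7 (-0.70; adjusted p = 0.0206), Heyl (-2.00; adjusted p = 0.00077) and Emcn (1.03; adjusted p = 0.0236). With that block 3 of 9 passed for IL-4, against 7.61% of all genes: Flt1 (-1.87; adjusted p = 0.00144), Egfl7 (-0.87; adjusted p = 0.00228) and Pecam1 (-0.96; adjusted p = 0.014). Without the block the LPS count of 0 rose to 6 without KO numbers 7 and 8 and to 5 without numbers 5 and 6.

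The 9 genes were compared by the Pearson correlation of log2 CPM over the 21 deep libraries, given as a description: the libraries share groups, numbers and stimuli. Cdh5 ran closest to Heyl and Esam (r = 0.93 each), then Emcn (0.85) and Tek (0.84), and was least like Pecam1 (0.24) and Flt1 (-0.4). Once the mean of each group was subtracted, Pecam1 also ran with Cdh5 (r = 0.92), beside Emcn (0.97), Esam (0.96) and Heyl (0.94), and Flt1 still stood apart (0.26). Over the 28 pairs without Flt1 the median r within groups was 0.79, and over the 8 pairs with Flt1 it was 0.2. The genes were chosen with the spread among the KO libraries known, so high values within groups are not a separate result.

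**Figure D4:**
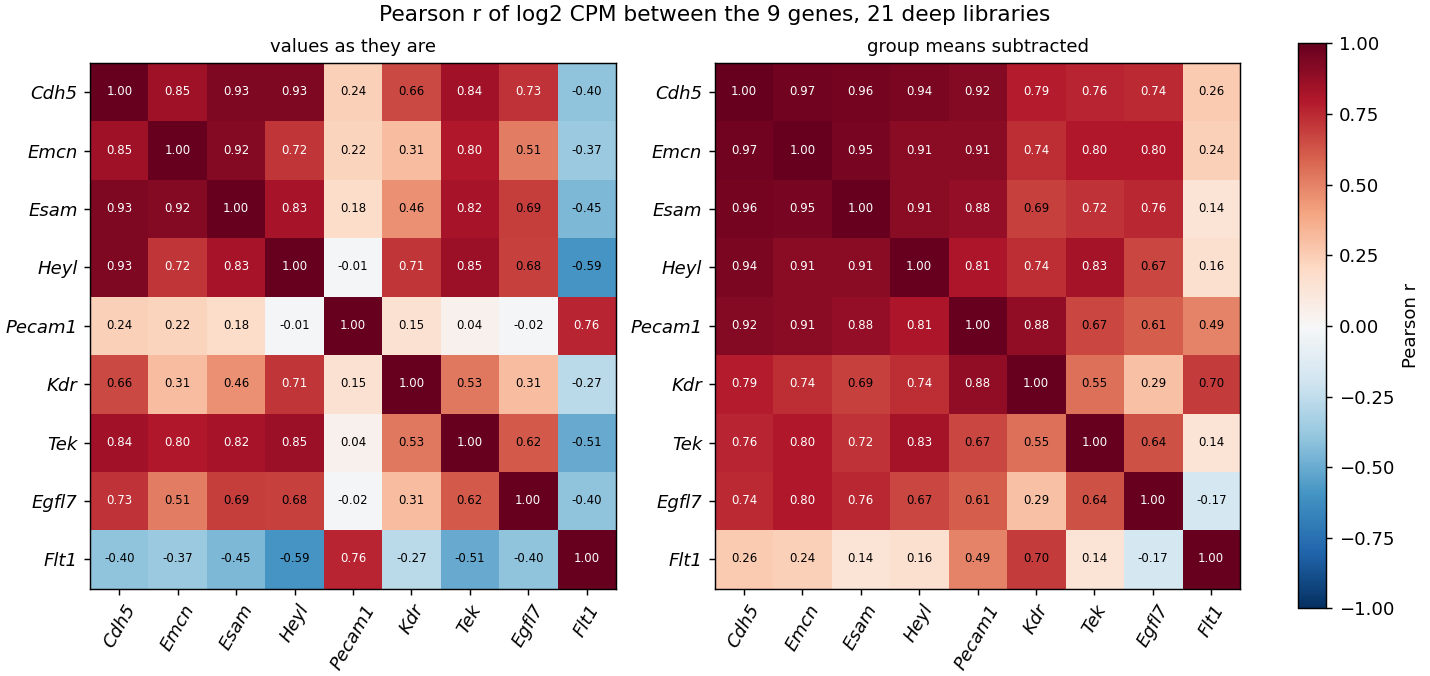
Pearson correlation of log2 CPM between the 9 genes over the 21 deep libraries, with values as they are (left) and after the mean of each group was subtracted (right). The block of high values on the right holds Cdh5, Emcn, Esam, Heyl and Pecam1, and the lowest values there are in the row of Flt1.

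Among 12161 genes compared, the 8 others most like Cdh5 were Podxl (r = 0.97), Mmrn2 (0.94), Ddit4l (0.94), Nrep (0.93), Itga7 (0.93), Tmem263 (0.92), Ncam1 (0.92) and Tie1 (0.92). Podxl encodes podocalyxin, a sialomucin of endothelial cells and podocytes, Mmrn2 an endothelial matrix protein and Tie1 the orphan partner of the Tek receptor. Tie1 stood at 0.866 to 1.41 CPM in WT M0 and at 1.09, 1.15, 5.97 and 7.52 CPM in KO 5 to 8, and Mmrn2 at 0.673 to 1.09 CPM in WT M0 and at 0.767, 0.691, 3.57 and 3.24 CPM in KO. These 8 genes were picked by their likeness to Cdh5 over the same libraries, so sharing its division between KO numbers is not a separate result. Podxl, Ddit4l, Nrep, Itga7, Tmem263 and Ncam1 are not on the list of endothelial genes used below. Of these, Ncam1 stood at 38.6 to 41.8 CPM in WT M0 and at 37.6, 39.9, 63.3 and 57.9 CPM in KO M0.

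A list of 32 further endothelial genes, of which 31 were tested, moved less evenly. In M0, 9 were higher in KO (among them Cldn5, Tie1, Sox18, Aplnr and Nos3) and 1, Stab1, was lower, with a median log2 fold change of 0.79 against 0.02 over all genes; 10 of 31 thus passed, against 22.3% of all genes. Label numbers differed within KO for 22 of the 31, against 20.6% of all genes, and within WT for 0, against 0.939%. Its summed level was 2986 to 3388 CPM in WT M0 and 2355 to 3131 CPM in KO M0, but Stab1, a scavenger receptor also made by macrophages, gave 2629 CPM of it in WT M0. With IL-4, 4 of the 31 rose and 8 fell in WT, where 60.1% of all genes passed, and 5 rose and 13 fell in KO, where 51.3% passed. With LPS, 4 rose and 7 fell in WT (57.7% of all genes passed), and 6 rose and 6 fell in KO (67.3%). The lists were drawn up with earlier results of these libraries known, and these counts are a description.

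Of 10 ligands and co-receptors of the VEGF and angiopoietin receptors, 4 rose and 3 fell with LPS in WT, and 2 rose and 7 fell with IL-4, beside the 57.7% and 60.1% of all genes that passed in those comparisons. Vegfa, the ligand of both VEGF receptors, rose with LPS by 0.93 in WT and 1.53 in KO on the log2 scale and fell with IL-4 by 0.72 and 0.46, while Pgf, a ligand of the Flt1 product only, fell with IL-4 by 0.9 and 0.74. Of 14 Notch pathway genes, 6 rose and 1 fell with LPS in WT, where 57.7% of all genes passed. With IL-4 in WT 0 rose and 10 fell (60.1% of all genes passed, in either direction), including Nrarp, Hey2 and Hes1, targets of Notch like Heyl. In KO, 1 rose and 11 fell with IL-4, against 51.3% of all genes in either direction. The Notch ligand Dll4 was 0.0721 to 0.288 CPM in WT M0 and 0.232, 0.66, 3.4 and 3.5 CPM in KO M0, so KO 7 and 8 again stood apart.

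**Figure D5:**
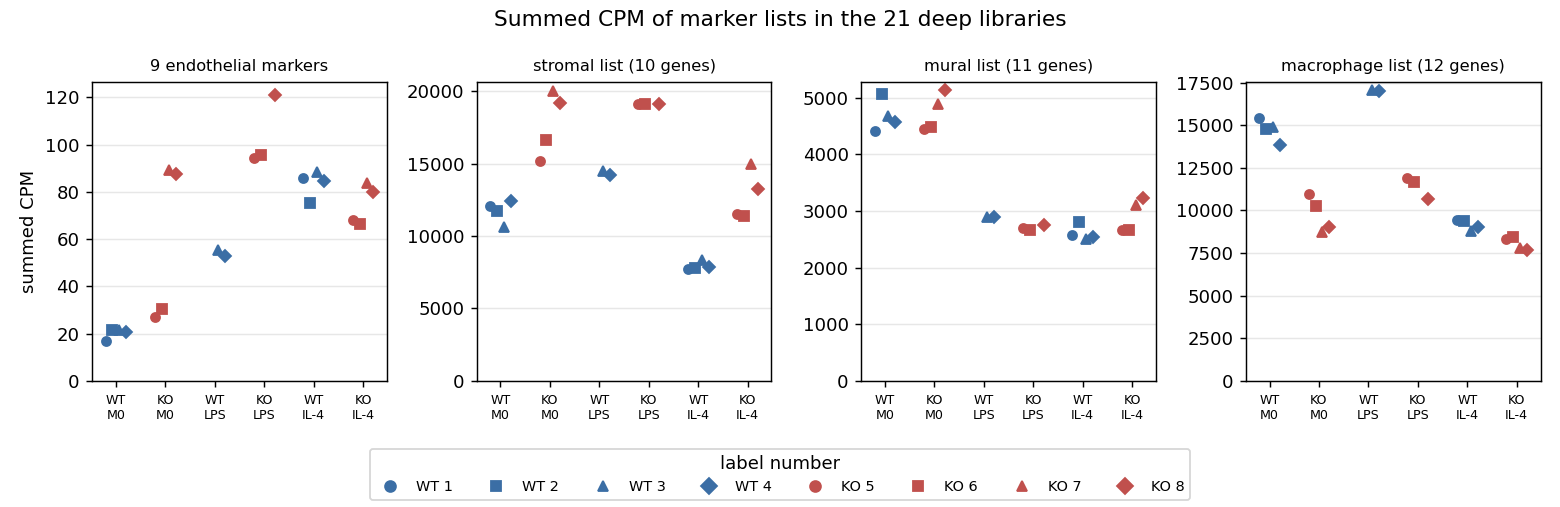
Summed CPM (vertical axis, from 0) of the 9 endothelial genes, 10 stromal genes, 11 mural genes and 12 macrophage genes in each of the 21 deep libraries, by group (horizontal axis; blue WT, red KO, symbols by label number). KO M0 libraries 7 and 8 have the highest endothelial and stromal sums of the M0 libraries and the lowest macrophage sums.

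Markers of other cell types were measured beside these results. In M0 the 9 endothelial genes summed to 16.8 to 21.6 CPM in WT and to 27.1, 30.3, 89.3 and 87.7 CPM in KO 5 to 8. The 10 stromal genes, led by the collagens Col1a1 and Col1a2, summed to 10610 to 12400 CPM in WT M0 and to 15160, 16650, 20010 and 19180 CPM in KO M0, and 8 of 10 passed as higher in KO, against 22.3% of all genes in either direction. The 11 mural genes, which mark pericytes and smooth muscle, summed to 4410 to 5065 CPM in WT and to 4448, 4479, 4891 and 5136 CPM in KO. Acta2 and Tagln, at means of 2769 and 1550 CPM in WT M0, made up most of that sum. In M0, 3 of the 11 passed as higher in KO and 1 as lower, against 22.3% of all genes. Label numbers differed within KO for 5 of the 11, against 20.6%. Mcam stood at 7.7 to 8.9 CPM in WT M0 and at 10.2, 10.8, 28.2 and 29.8 CPM in KO M0. Myh11 went from 3.67 to 5.15 CPM in WT M0 to 2.1 to 3.15 CPM in KO M0. The 12 macrophage genes summed to 13820 to 15420 CPM in WT M0 and to 10960, 10250, 8727 and 9002 CPM in KO M0, with 5 of 12 lower in KO, against the same 22.3%. Lyz2, lysozyme, alone went from a mean of 9306 CPM in WT to 5085 CPM in KO and so carried most of that fall, while Cd68 (0.16 ± 0.09), Fcgr1 (0.16 ± 0.10) and Mertk (0.06 ± 0.09) had positive log2 differences that did not pass. No gene of these 3 lists was at 0 in a group. In M0, KO 7 and 8 therefore had the higher stromal and the lower macrophage sums as well as the higher sums of the 9 endothelial genes. With LPS the stromal sums of KO 5, 6 and 8 were close, at 19100, 19110 and 19160 CPM. The part of these sums in the results above was not tested. With IL-4 in WT the stromal sum was 7757 to 8384 CPM and the mural sum 2499 to 2810 CPM. There, 7 of 10 stromal genes fell (1 rose) and 8 of 11 mural genes fell (1 rose), against 60.1% of all genes in either direction. In KO with IL-4, 7 of 10 stromal genes fell (1 rose) and 9 of 11 mural genes fell (1 rose), against 51.3%. With LPS in WT, 3 stromal genes rose and 0 fell, and 1 mural gene rose and 7 fell, against 57.7%. These counts are a description. The part of these genes in the responses of the 9 endothelial genes was not tested.

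Of the remaining lists, megakaryocyte genes went in both directions. The 8 megakaryocyte genes, which share Vwf with the endothelial list, summed to 573 to 672 CPM in WT M0 and to 570, 529, 430 and 455 CPM in KO M0, mostly from Pf4. Itgb3, an integrin that endothelial cells also carry, instead stood at 11.4 to 13.4 CPM in WT M0 and at 11.2, 11.2, 23.3 and 21.3 CPM in KO M0. Gp1bb was above its WT range of 3.55 to 4.28 CPM in every KO M0 library (4.51, 4.78, 5.02 and 5.81 CPM). Itga2b was above its WT range of 0.938 to 1.12 CPM in KO 6, 7 and 8 (1.247, 1.425 and 1.29 CPM). The 10 progenitor genes summed to 133 to 145 CPM in WT M0 and 114 to 140 CPM in KO M0. The 7 neutrophil genes summed to 19.2 to 29.8 CPM and 16 to 32.4 CPM. B cell genes did not exceed 5.08 CPM, and T and NK cell, mast cell and erythroid genes did not exceed 0.425, 0.24 and 0.395 CPM in any deep library; Cd3e, Tpsb2, Hba-a1 and Hbb-bs were at 0 in both M0 groups.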

How the data were processed

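Total RNA was sequenced from 24 macrophage libraries. The deposited raw counts per gene symbol were made by the authors with TopHat2 2.1.0, HTSeq 0.9.1 and mm10 (GRCm38), per the submitters' processing notes; the sources used here give neither annotation nor strandedness. From the counts, TMM-scaled CPM and edgeR's quasi-likelihood test were computed (edgeR 4.0.16, R 4.3.3): 24 libraries, 1 coefficient per group, 14693 genes after the filter on low counts, Benjamini-Hochberg adjustment over all of them and a threshold of 0.05. Summary lines that name no gene were left out: reads assigned to no counted feature were 3.11% to 3.59% of reads. The members and lists were chosen with earlier results of these data known. The genes named are the 9 members, genes of the lists, and the 8 other genes most correlated with Cdh5 in log2 CPM (prior count 2). Levels per length used exon lengths from GENCODE M21. Alternatives were RLE factors, DESeq2 1.42.0, no filter, fewer libraries or groups, and a replicate block. The label numbers paired the KO libraries only in part: same-numbered libraries had correlations of 0.173 to 0.428 between states. Another number often came close, as for KO 5 between M0 and IL-4 (0.406 for its own number, at most 0.382 for another). For KO 6 another number was higher (0.333 against 0.312 with IL-4, 0.1738 against 0.173 with LPS). KO 8 was clearest with LPS (0.428 against -0.24). In WT the same-number correlations were 0.01 to 0.17. The fit was tested on simulated counts.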

Additional observations from a re-analysis of the deposited data

Results flagged for a closer look

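Kdr in WT M0 library 3, at 3.15 CPM, stood apart from the other 3 WT M0 libraries, at 2.81 to 2.87 CPM. Of 36 groups of 4 libraries checked, this was the one with such a library, and chance marks about 1 in 20 groups.

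The IL-4 response of Flt1 differed between the genotypes by -1.87 on the log2 scale (KO minus WT), and the difference itself was tested (adjusted p = 0.0081, edgeR). It is built from KO against WT values known when the genes were chosen, so this is not an independent test. Without KO numbers 7 and 8 it was -0.85 and did not pass (adjusted p = 0.0935, edgeR), and DESeq2 gave it no adjusted p.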

How the results depend on the processing

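Counts of the 9 genes past the threshold moved as follows, and the cause was not tested. With the replicate block they became 8 (from 4) for LPS in WT, 5 (from 3) for LPS in KO, 9 (from 5) for IL-4 in WT, 3 (from 0) for the LPS difference between genotypes and 3 (from 1) for the IL-4 difference. Without KO numbers 7 and 8 these were 7, 5, 9 and 6 for the first 4, and KO against WT with LPS gave 5 (from 3). Without numbers 5 and 6 they were 7, 5, 9, 5 and 3, and KO against WT gave 7 with LPS and 9 (from 5) with IL-4. On the groups of the contrast only they were 7 for LPS in WT, 9 for IL-4 in WT, 1 for the LPS difference and 5 for KO against WT with LPS. DESeq2 gave 2 for LPS in WT and 3 for KO against WT with IL-4. No filter gave 1 for the LPS difference. Leaving out 1 library at a time gave 2 to 4 for LPS in WT, 3 for LPS in KO, 5 to 7 and 4 to 7 for IL-4 in WT and KO, 0 to 2 and 1 for the LPS and IL-4 differences, 4 to 7, 3 and 3 to 6 for KO against WT in M0, LPS and IL-4 (3 without KO IL-4 7), and 7 to 8 and 0 for label numbers within KO and WT.

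Among values that passed the threshold in at least 1 of the fits compared, direction turned for Cdh5 with LPS in KO, to 0.37 with the block and 0.74 without KO 7 and 8. Without KO 7 and 8 it also turned for the LPS difference of Kdr (0.72), Pecam1 (0.63) and Flt1 (0.88), for KO against WT in M0 of Pecam1 (-0.31) and Emcn (-1.36), and for KO against WT with IL-4 of Cdh5 (-0.069), Pecam1 (-0.51) and Esam (-1.18). Of the log2 fold changes of single genes under stimulation, 228 of 288 kept direction and call under alternatives other than leaving out 1 library, 41 gained the call, 8 lost it and 11 turned, 9 of them called in neither fit. Such uncalled turns numbered 7 for the differences of response and 8 for KO against WT. Examples over the 3 families are that with the block, Emcn (0.22) and Esam (0.23) turned for LPS in KO, and without KO 7 and 8, Esam (-0.43) in M0 and Emcn (-0.71) and Tek (-1.20) with IL-4 turned for KO against WT. Leaving out 1 library turned 8, 30 and 10 values in these 3 families, all called in neither fit. In WT the same numbers in different states did not deviate together throughout, so there the block rests on a shared number only. The 3 shallow libraries limit LPS to 2 deep WT and 3 deep KO libraries.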
